A study of Mus musculus with 12 samples.

Results

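B cell identity genes were followed across cultures of activated spleen cells labelled as CD4 T cells, in which B cells were not the population sorted for. The set was chosen by symbol, with earlier results of these data known, so the counts below describe it and are no independent support. It holds 37 genes for the B cell receptor (BCR) and its signalling proteins, its coreceptors and inhibitory receptors, transcription factors, receptors of the TNF receptor family and other surface or intracellular proteins. Of these, 36 were found among the 47643 genes of the table. The missing name, Faim3, is an older symbol of Fcmr, which is itself in the set. All 36 reached 1 FPKM (a count of fragments scaled by transcript length and by sequencing depth) in at least 3 libraries and were tested among the 13082 genes that did so. The group mean was at least 1 FPKM in every group for 34 of them, the exceptions being Pax5 in WT TNF+TGF-β and Cr2 in WT IL-6+TGF-β.

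RNA was sequenced from 12 bulk libraries in 4 groups of 3, all from naive CD4+ T cells of the spleen of C57BL/6 mice, as labelled. All groups were activated for 3 days by plate-bound antibodies to CD3 and CD28, at 2 µg/ml each, with 500000 cells put into culture. The first group was Tnfr2-/- (no TNF receptor 2, gene Tnfrsf1b) with 20 ng/ml TNF and 2 ng/ml TGF-β, and the second was wild type (WT) with the same cytokines. The third was WT with 20 ng/ml IL-6 and 2 ng/ml TGF-β, and the last was WT with no added cytokine (Th0). The labels do not give the age or sex of the mice, how the receptor gene was deleted, or whether libraries of a group came from separate mice or cultures, so p-values measure a spread between libraries that may be technical. A Tnfr2-/- Th0 group and TGF-β without a partner cytokine were not analysed here, so genotype without cytokines and TGF-β without TNF or IL-6 cannot be told apart from the contrasts below.

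B cells recognise antigen with a membrane immunoglobulin that signals through the Igα and Igβ chains, encoded by Cd79a and Cd79b. Kinases of the Src, Syk and Tec families pass that signal on, complement receptors such as CD21 lower its threshold, and receptors such as CD22 and FcγRIIb dampen it. The identity of the lineage is set up by Ebf1 and Pax5, and mature follicular B cells of the spleen depend on the BAFF receptor. T cells share some of these proteins or use relatives of them, and several are also made by macrophages and dendritic cells.

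The upstream sequences of Cd79a, Cd22, Blnk and Vpreb3 are shown because these genes moved together or, for Vpreb3, apart from the rest, and because each holds a match to a searched motif. Each is the window from 250 bases before to 50 bases after an annotated start, 5′ to 3′ on the strand of the gene, from RefSeq on GRCm38.p6. Capitals mark motif matches. Cd79a lies at chr7:24897247-24897546 on the plus strand, Cd22 at chr7:30878979-30879278 on the minus strand, Blnk at chr19:40994172-40994471 on the minus strand and Vpreb3 at chr10:75948050-75948349 on the plus strand.
Cd79a: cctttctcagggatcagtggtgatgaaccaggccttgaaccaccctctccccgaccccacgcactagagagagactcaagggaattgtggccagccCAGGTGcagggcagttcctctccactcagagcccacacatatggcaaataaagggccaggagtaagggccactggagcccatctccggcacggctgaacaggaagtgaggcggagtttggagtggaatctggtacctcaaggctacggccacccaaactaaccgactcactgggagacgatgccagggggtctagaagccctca
Cd22: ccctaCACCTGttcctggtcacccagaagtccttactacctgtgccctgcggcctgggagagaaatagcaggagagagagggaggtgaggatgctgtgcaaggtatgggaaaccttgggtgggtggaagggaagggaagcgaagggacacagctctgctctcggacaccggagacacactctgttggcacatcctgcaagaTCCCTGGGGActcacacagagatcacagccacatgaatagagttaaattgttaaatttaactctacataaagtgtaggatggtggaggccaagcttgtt
Blnk: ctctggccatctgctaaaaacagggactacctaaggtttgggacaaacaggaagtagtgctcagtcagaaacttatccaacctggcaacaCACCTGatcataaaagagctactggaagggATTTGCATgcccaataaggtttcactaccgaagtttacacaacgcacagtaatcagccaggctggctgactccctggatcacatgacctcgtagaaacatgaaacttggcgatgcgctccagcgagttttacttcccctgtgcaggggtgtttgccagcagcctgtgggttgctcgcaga
Vpreb3: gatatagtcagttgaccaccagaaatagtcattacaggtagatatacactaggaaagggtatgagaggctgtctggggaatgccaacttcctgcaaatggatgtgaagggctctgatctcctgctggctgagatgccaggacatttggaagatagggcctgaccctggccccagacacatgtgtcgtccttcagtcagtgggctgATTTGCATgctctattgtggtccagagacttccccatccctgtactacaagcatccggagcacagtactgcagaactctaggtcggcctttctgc
The octamer ATGCAAAT, bound by the Oct factors, was present on its reverse strand in Blnk, at -130 to -123, and in Vpreb3, at -45 to -38, counted from the start base as +1 with -1 just before it. The EBF motif, TCCC and GGGA around 2 bases of any kind, was present in Cd22 at -49 to -40. The E-box CAGGTG was present in Cd79a at -154 to -149, and on the reverse strand in Cd22 at -245 to -240 and in Blnk at -160 to -155. In these 4 windows no match overlaps another.

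Windows were found for 30 of the 36 genes, 39 in all since some genes have several starts, and 5 motifs were searched on both strands. The octamer was in 2 of the 39 windows, against 1.74% of 32851 windows over all genes, and the EBF motif in 1, against 0.904%. The E-box was in 16 of 39 windows (41.0%), against 20.2% of all windows, and these belonged to 14 genes, among them Bank1, Cr2, Fcmr, Fcrla, Ralgps2 and Tnfrsf13c. The ETS motif GAGGAAGT was in Cd37 and Cd72, against 3.20% of all windows. The kappaB motif, GGG and TTTCC around 2 bases of any kind, was in 0 of 39 windows, against 1.63% of all. These matches describe letters in short windows and were not tested for binding.

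Some values of the whole series bear on what follows. Tnfrsf1b was at 4.87, 3.71 and 3.19 FPKM in the 3 Tnfr2-/- libraries and between 17.4 and 108 FPKM in the 9 WT libraries. In 11 of 12 libraries Cd4 was lower than Cd8a and also lower than Cd8b1, which goes against a label of CD4 T cells alone. Cd3e was between 199 and 628 FPKM. Depth was not given and was estimated from steps between low values, with a method chosen after the data were seen, as 16800000 to 24000000 fragments per library. At that depth 3 fragments on 1 kilobase are worth 0.125 to 0.179 FPKM, a limit that covers counting error only.

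B cell identity genes were highest in Tnfr2-/- cells and lowest in WT cells with TNF+TGF-β. By group mean, 33 of the 36 genes were highest in Tnfr2-/-, 2 in Th0 and 1 in WT IL-6+TGF-β, while 25 were lowest in WT TNF+TGF-β, 10 in WT IL-6+TGF-β and 1 in Th0. In 22 of 36 genes all 3 Tnfr2-/- libraries lay above all 9 WT libraries, as in 14.4% of all tested genes. In 19 of 36 all 3 WT TNF+TGF-β libraries lay below the 9 others, as in 3.13% of all tested genes. In bulk RNA, fewer cells of a type and less RNA per cell cannot be told apart.

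**Figure D1:**
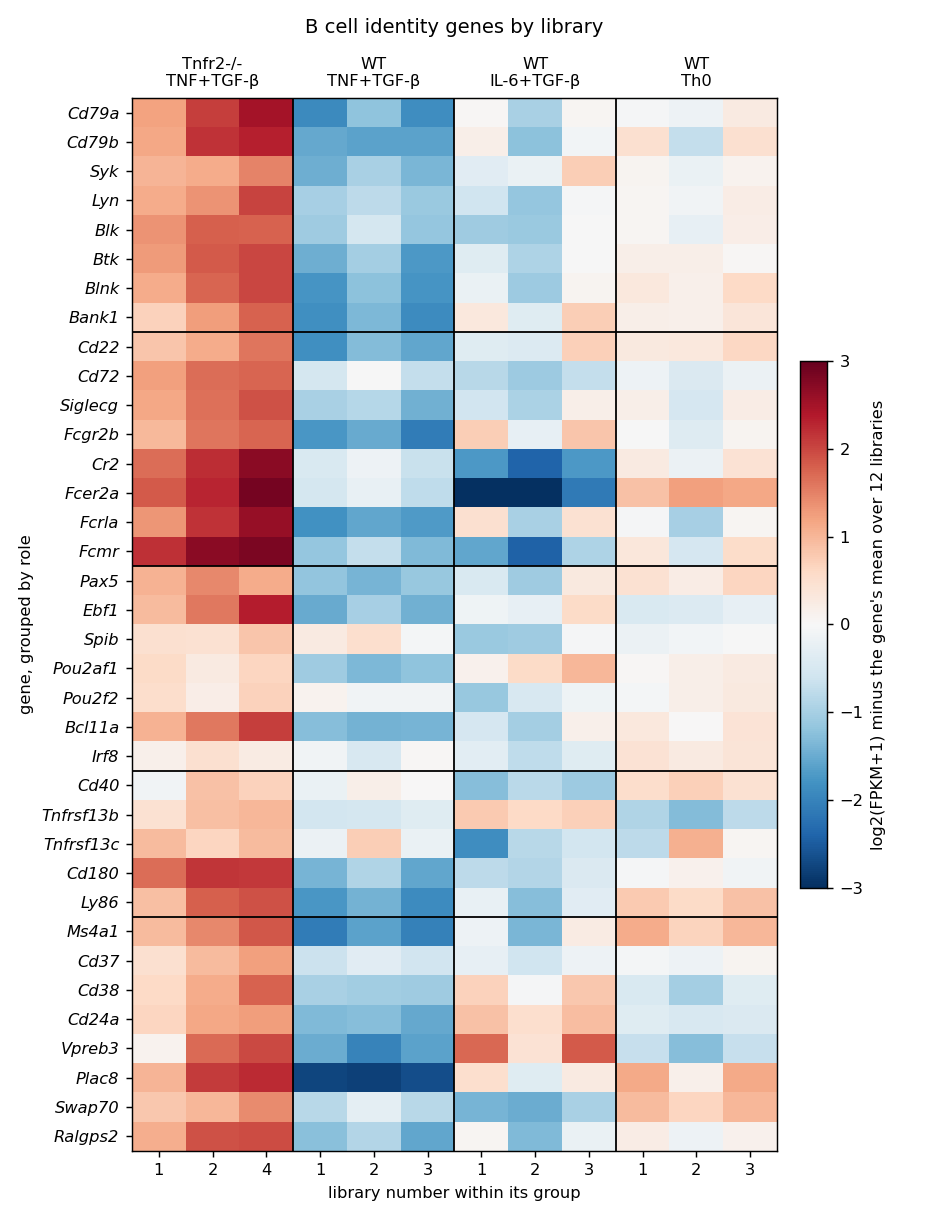
Level of each of the 36 genes in each library, as log2(FPKM + 1) minus the mean of the gene over the 12 libraries, with genes grouped by role (rows) and libraries by group (columns). Colours saturate at 3 on either side. The Tnfr2-/- columns are above the mean for nearly all genes, and the WT TNF+TGF-β columns are below it for most.

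Tnfr2-/- against WT cells under TNF+TGF-β compares the genotypes when TNF is present. Without a Tnfr2-/- Th0 group, differences between the genotypes from before the culture cannot be told apart from those that need TNF. Of the 36 genes, 32 were higher in Tnfr2-/- cells and 0 were lower (limma, Benjamini-Hochberg adjusted p under 0.05 over all tested genes), while 19.9% of all tested genes were higher and 17.5% lower. At an unadjusted p under 0.05, 33 were higher and 0 lower. The libraries of both groups did not overlap for 33 genes, against 26.8% of all tested genes with Tnfr2-/- on top and 24.0% with WT on top. The median difference of the 36 genes was 2.70 on the log2(FPKM + 1) scale, against 0.00 over all tested genes. The mean in Tnfr2-/- cells was at least 5 times that in WT cells for 26 genes and at least 10 times for 13. The genes not called were Spib, Pou2f2, Tnfrsf13c and Cd40. The call of Irf8 was lost without WT TNF+TGF-β replicate 1 or 2, or without the Tnfr2-/- library numbered 2 or 4 (limma, adjusted p between 0.0674 and 0.144), and Cd40 was called without Tnfr2-/- library 1 (limma, adjusted p = 0.00424).

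Within WT cells, TNF+TGF-β against Th0 gave 26 genes lower and 1 higher, while 13% of all tested genes were lower and 18.7% higher. Without overlap between the libraries, 29 were lower and 1 higher, against 23.2% and 31.9% of all tested genes. The median difference was -1.27 over the 36 genes and 0.07 over all tested genes. The single rise was Tnfrsf13b, whose call was lost in 5 of the 6 fits that left out 1 library (limma, adjusted p between 0.0530 and 0.108), the exception being Th0 replicate 3, and also with median-ratio scaling or no filter. In fits that left out 1 library the falls of Ebf1, Blk, Fcrla, Fcmr, Siglecg, Irf8 and Lyn were also lost, with adjusted p up to 0.120. Without Th0 replicate 3 the lost falls were those of all 7, and without Th0 replicate 1 those of all but Lyn. Without WT TNF+TGF-β replicate 1 or 3 Ebf1, Blk, Fcrla and Fcmr were among them, without replicate 2 Fcrla and Irf8 were, and without Th0 replicate 2 Ebf1 was.

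IL-6+TGF-β against Th0 gave 12 genes lower and 4 higher, while 9.15% of all tested genes were lower and 14.1% higher. Libraries did not overlap for 14 genes lower and 5 higher, against 16.8% and 22.4% of all tested genes. The median difference was -0.64 over the 36 genes and 0.04 over all tested genes. The number lower was 7 without Th0 replicate 3 and between 8 and 16 in the other fits that left out 1 library. The falls of Pax5, Cd72, Pou2f2, Cd180 and Ms4a1 and the rise of Cd38 were those lost in such fits (limma, adjusted p between 0.0518 and 0.174). Ms4a1 was lost without Th0 replicate 1 or 3, and Cd38 without Th0 replicate 2 or IL-6+TGF-β replicate 3. Pax5, Pou2f2 and Cd180 were each lost without any 1 of the 3 Th0 replicates or IL-6+TGF-β replicate 1 or 2, and Cd72 without Th0 replicate 1 or 3 or IL-6+TGF-β replicate 2 or 3.

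TNF+TGF-β compared with IL-6+TGF-β gave 17 genes lower and 4 higher, while 5.50% of all tested genes were lower and 7.31% higher. Libraries did not overlap for 21 genes lower and 7 higher, against 15.1% and 16.9% of all tested genes. The median difference was -0.93 over the 36 genes and 0.00 over all tested genes. The number lower was 10 without WT TNF+TGF-β replicate 1 or without IL-6+TGF-β replicate 3, and 11 without TNF+TGF-β replicate 3 or without IL-6+TGF-β replicate 1. The calls that could be lost in this way were those of Cd79a, Ms4a1, Ebf1, Blnk, Btk, Fcrla, Spib and Ly86 (limma, adjusted p between 0.0502 and 0.128).

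**Figure D2:**
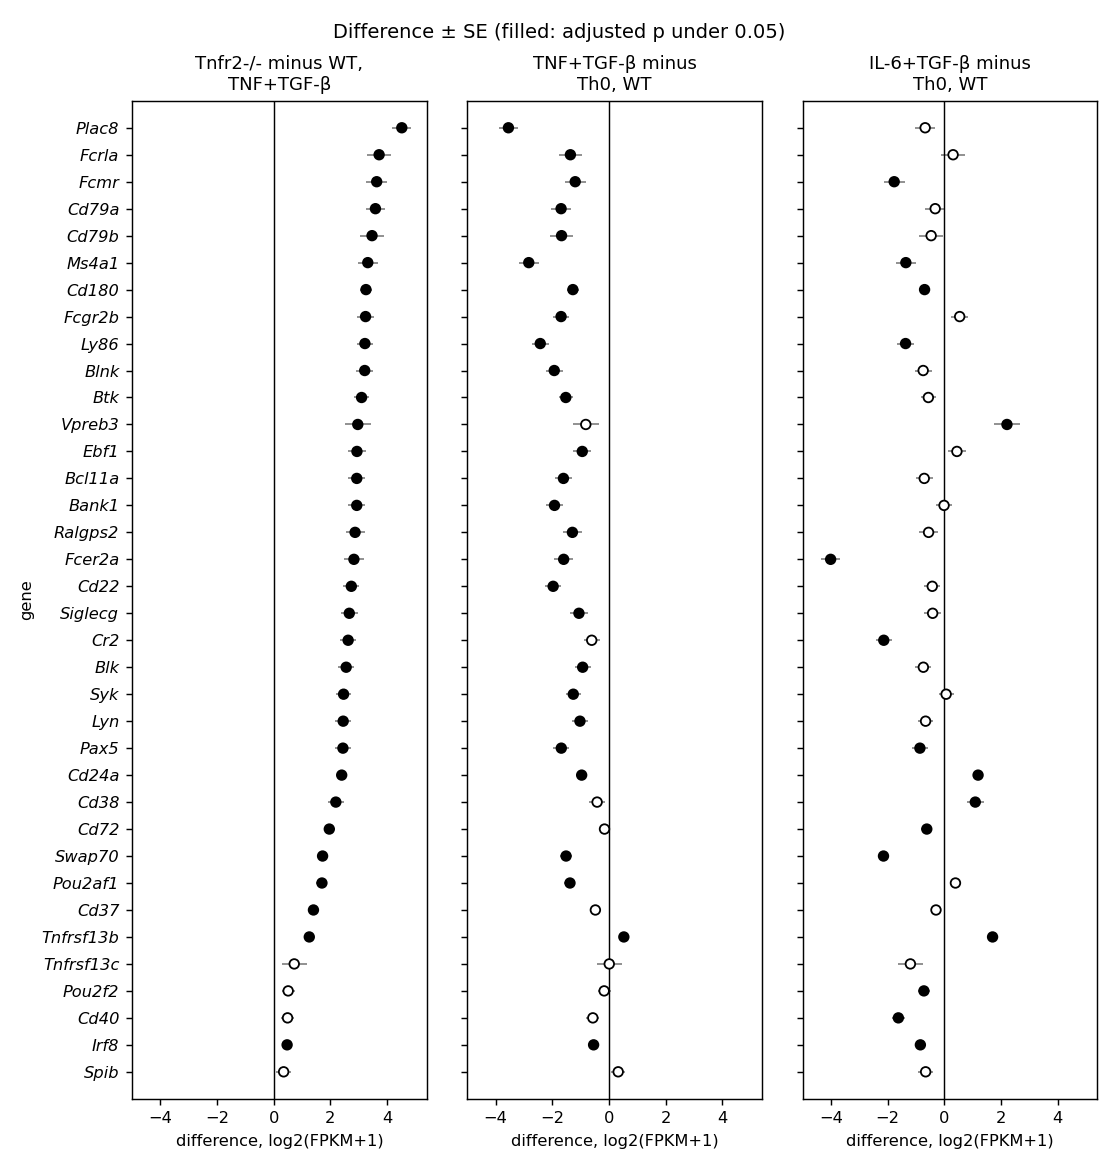
Difference of each gene in 3 comparisons, on the log2(FPKM + 1) scale (horizontal axis), with its standard error. Filled points have an adjusted p under 0.05, and genes run down by their Tnfr2-/- minus WT difference. In Tnfr2-/- against WT, 32 filled points lie right of 0. In TNF+TGF-β against Th0, 26 lie left of it, and in IL-6+TGF-β against Th0, 12 lie left and 4 right.

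The 8 genes of the BCR complex and its proximal signalling moved together in the comparisons with TNF+TGF-β. All 8 were higher in Tnfr2-/- than in WT cells, with a median difference of 3.02 on the log2 scale, and all 8 were lower in WT TNF+TGF-β than in Th0, with a median of -1.60. In IL-6+TGF-β against Th0, 0 of 8 were called by limma, although 3 were lower at an unadjusted p under 0.05, and the median was -0.51. TNF+TGF-β compared with IL-6+TGF-β gave 5 of 8 lower. For this and the later subgroups, the shares over all tested genes are those given above for each comparison.

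Cd79a, the Igα chain, had 668, 1215 and 1638 FPKM in Tnfr2-/- TNF+TGF-β, against 76.5, 123 and 78.03 FPKM in WT TNF+TGF-β, 293, 147 and 302 FPKM in WT IL-6+TGF-β and 280.5, 258 and 350.0 FPKM in Th0. All Tnfr2-/- libraries stood above all WT libraries, and the WT TNF+TGF-β libraries were below all others. Its mean was 1174 ± 486 FPKM in Tnfr2-/- and 92.6 ± 26.6 FPKM in WT under TNF+TGF-β (SD, n = 3 each), a difference of 3.59 ± 0.34 (log2, SE; limma, adjusted p = 1.79e-05). Cd79b, the Igβ chain, had 813, 1628 and 1832 FPKM in Tnfr2-/- TNF+TGF-β, against 125, 118 and 118 FPKM in WT TNF+TGF-β, 411, 154 and 345 FPKM in WT IL-6+TGF-β and 508, 221 and 509 FPKM in Th0. Its order of group means was that of Cd79a. It was at 112% to 134% of the FPKM of Cd79a in Tnfr2-/- libraries and 95.8% to 163% in WT TNF+TGF-β libraries. The range was 105% to 140% in IL-6+TGF-β and 85.8% to 181% in Th0. Th0 replicate 2 lay below the other 2 Th0 libraries and above all WT TNF+TGF-β libraries.

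Syk, the kinase recruited to the phosphorylated Ig chains, had 30.1, 32.5 and 42.5 FPKM in Tnfr2-/- TNF+TGF-β, against 4.62, 6.94 and 5.01 FPKM in WT TNF+TGF-β, 11.1, 12.4 and 24.98 FPKM in WT IL-6+TGF-β and 15.2, 12.6 and 15.7 FPKM in Th0. Lyn, the Src family kinase that starts both activating and inhibitory signals, had 61.6, 73.6 and 117 FPKM in Tnfr2-/- TNF+TGF-β, against 13.6, 15.97 and 12.5 FPKM in WT TNF+TGF-β, 18.2, 12.1 and 27.4 FPKM in WT IL-6+TGF-β and 29.2, 26.2 and 33.2 FPKM in Th0. Both were highest in the 3 Tnfr2-/- libraries, where Syk was 6.34 and Lyn 5.99 times the WT TNF+TGF-β mean. Both are also made by myeloid cells. Blk, a Src family kinase largely restricted to B cells, had 64.9, 89.5 and 88.04 FPKM in Tnfr2-/- TNF+TGF-β, against 11.5, 17.01 and 10.6 FPKM in WT TNF+TGF-β, 11.4, 11.04 and 24.9 FPKM in WT IL-6+TGF-β and 26, 21.1 and 28.99 FPKM in Th0. Its Tnfr2-/- libraries did not overlap any WT library, and its fall in TNF+TGF-β against Th0 was -0.93 ± 0.28 (log2, SE; limma, adjusted p = 0.0262).

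Btk, the Tec family kinase downstream of Syk, had 40.4, 59.9 and 67.2 FPKM in Tnfr2-/- TNF+TGF-β, against 5.17, 7.48 and 4.19 FPKM in WT TNF+TGF-β, 12.2, 7.99 and 15.9 FPKM in WT IL-6+TGF-β and 18.3, 18.2 and 16.4 FPKM in Th0. Blnk, the adaptor that brings Btk to its substrate, had 122, 189.7 and 226 FPKM in Tnfr2-/- TNF+TGF-β, against 15.6, 23.2 and 15.6 FPKM in WT TNF+TGF-β, 48.5, 25.5 and 59.1 FPKM in WT IL-6+TGF-β and 68.8, 61.5 and 83.9 FPKM in Th0. Bank1, a scaffold protein of BCR signalling, had 57.5, 84.96 and 123 FPKM in Tnfr2-/- TNF+TGF-β, against 9.13, 13.1 and 8.80 FPKM in WT TNF+TGF-β, 43.8, 27.1 and 58.95 FPKM in WT IL-6+TGF-β and 40.04, 39.2 and 45.2 FPKM in Th0. These 3 genes shared the order Tnfr2-/- highest and WT TNF+TGF-β lowest with no overlap between those groups, and were 9.95, 9.88 and 8.54 times as high in Tnfr2-/- as in WT cells under TNF+TGF-β. In IL-6+TGF-β against Th0 the Bank1 difference was -0.01 ± 0.29 (log2, SE; limma, adjusted p = 0.992), and 0.10 after rescaling each library to a common sum (TPM), and its IL-6+TGF-β libraries spread on both sides of the Th0 libraries.

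The coreceptors and inhibitory receptors all rose in Tnfr2-/- cells but parted ways between the cytokine pairs. All 8 were higher in Tnfr2-/- than in WT cells, with a median difference of 2.79, and 6 of 8 were lower in TNF+TGF-β than in Th0, with a median of -1.28. In IL-6+TGF-β against Th0, 4 of 8 were lower, and in TNF+TGF-β compared with IL-6+TGF-β, 2 were higher and 3 lower.

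Fcer2a, the low-affinity IgE receptor CD23, had 105, 143 and 216 FPKM in Tnfr2-/- TNF+TGF-β, against 19.8, 24.4 and 16.4 FPKM in WT TNF+TGF-β, 2.75, 1.40 and 5.78 FPKM in WT IL-6+TGF-β and 53.8, 68.6 and 65.8 FPKM in Th0. The 3 IL-6+TGF-β libraries lay far below every other library, with no overlap. The fall against Th0 was -4.01 ± 0.34 (log2, SE; limma, adjusted p = 4.8e-06), the lowest difference among the 36 genes in that comparison, and the Th0 mean was 18.9 times the IL-6+TGF-β mean. TNF+TGF-β against Th0 gave a difference of -1.60 ± 0.34 (limma, adjusted p = 0.00404), and TNF+TGF-β compared with IL-6+TGF-β one of 2.41 ± 0.34 (limma, adjusted p = 0.000447). Cr2, the complement receptor CD21, had 22.1, 32.6 and 45.99 FPKM in Tnfr2-/- TNF+TGF-β, against 4.22, 5.52 and 3.53 FPKM in WT TNF+TGF-β, 1.19, 0.360 and 1.17 FPKM in WT IL-6+TGF-β and 7.73, 5.43 and 8.73 FPKM in Th0. Its order of group means was the same as for Fcer2a, but here TNF+TGF-β and Th0 libraries overlapped. It fell in IL-6+TGF-β against Th0, with a difference of -2.13 ± 0.28 (log2, SE; limma, adjusted p = 0.000169), while TNF+TGF-β against Th0 was not called (limma, adjusted p = 0.124).

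Fcmr, the receptor for IgM, had 1445, 2080.3 and 2269 FPKM in Tnfr2-/- TNF+TGF-β, against 141, 194 and 127 FPKM in WT TNF+TGF-β, 107, 58.02 and 168 FPKM in WT IL-6+TGF-β and 400.2, 223 and 469.9 FPKM in Th0. It was the most abundant of the 36 genes per length in Tnfr2-/- cells by group mean. Both cytokine pairs were below Th0 in WT cells, with differences of -1.19 ± 0.37 for TNF+TGF-β (limma, adjusted p = 0.027) and -1.77 ± 0.37 for IL-6+TGF-β (log2, SE; limma, adjusted p = 0.00412). Fcrla, an Fc receptor-like protein that stays inside the cell, had 175, 315 and 429 FPKM in Tnfr2-/- TNF+TGF-β, against 19.1, 22.9 and 20.8 FPKM in WT TNF+TGF-β, 96.6, 34.6 and 96.3 FPKM in WT IL-6+TGF-β and 67.3, 34.1 and 72.8 FPKM in Th0. Its mean was 14.6 times as high in Tnfr2-/- as in WT cells under TNF+TGF-β, and IL-6+TGF-β and Th0 libraries overlapped.

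Cd22, an inhibitory lectin of the BCR, had 93.2, 114 and 160.1 FPKM in Tnfr2-/- TNF+TGF-β, against 13.9, 20.7 and 17.1 FPKM in WT TNF+TGF-β, 40.6, 39.3 and 85.8 FPKM in WT IL-6+TGF-β and 63.9, 65.5 and 80.4 FPKM in Th0. Siglecg, its relative with a like role, had 46.2, 64.9 and 77.4 FPKM in Tnfr2-/- TNF+TGF-β, against 9.62, 10.6 and 6.72 FPKM in WT TNF+TGF-β, 13.2, 9.92 and 22.7 FPKM in WT IL-6+TGF-β and 22.8, 13.7 and 23.5 FPKM in Th0. Fcgr2b, the inhibitory IgG receptor, had 54.4, 84.5 and 93.6 FPKM in Tnfr2-/- TNF+TGF-β, against 7.30, 8.79 and 5.50 FPKM in WT TNF+TGF-β, 45.4, 22.7 and 49.1 FPKM in WT IL-6+TGF-β and 26.6, 20.6 and 28.9 FPKM in Th0. By group mean all 3 were lowest in WT TNF+TGF-β, and Fcgr2b differed there from IL-6+TGF-β by -2.23 ± 0.29 (log2, SE; limma, adjusted p = 0.000247). Fcgr2b is also made by macrophages. Cd72, an inhibitory lectin, had 395, 541 and 569 FPKM in Tnfr2-/- TNF+TGF-β, against 117, 168 and 103 FPKM in WT TNF+TGF-β, 95.2, 79.03 and 102 FPKM in WT IL-6+TGF-β and 151, 125 and 149 FPKM in Th0. TNF+TGF-β and Th0 libraries of Cd72 overlapped, and the difference of -0.16 ± 0.19 was not called (log2, SE; limma, adjusted p = 0.568) and was 0.02 after rescaling to TPM, while the fall in IL-6+TGF-β against Th0 was -0.62 ± 0.19 (limma, adjusted p = 0.0385). In the GENCODE M21 annotation 41.6% of the exon bases of Cd72 also lie in Tesk1 on the opposite strand, which averaged 34.1 FPKM, and reads without strand cannot be told apart between them.

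The transcription factors were less uniform. In Tnfr2-/- against WT cells 5 of 7 were higher, with a median difference of 1.70. In TNF+TGF-β against Th0, 5 of 7 were lower, in IL-6+TGF-β against Th0 3 were lower, and in TNF+TGF-β compared with IL-6+TGF-β 2 were lower and 1 higher.

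Pax5, which holds B cells to their identity, had 7.75, 10.6 and 8.22 FPKM in Tnfr2-/- TNF+TGF-β, against 0.870, 0.620 and 0.910 FPKM in WT TNF+TGF-β, 2.07, 1.03 and 4.15 FPKM in WT IL-6+TGF-β and 4.85, 3.96 and 5.59 FPKM in Th0. It was at or below 10.6 FPKM in all libraries and under 1 FPKM in WT TNF+TGF-β. Its Tnfr2-/- libraries were above all WT libraries, and the difference from WT under TNF+TGF-β was 2.44 ± 0.28 (log2, SE; limma, adjusted p = 5.7e-05). Ebf1, which acts before Pax5 in the lineage, had 20.6, 32.2 and 55.9 FPKM in Tnfr2-/- TNF+TGF-β, against 2.92, 4.62 and 3.11 FPKM in WT TNF+TGF-β, 9.27, 8.51 and 15.7 FPKM in WT IL-6+TGF-β and 7.09, 7.36 and 8.49 FPKM in Th0. Ebf1 was higher in each IL-6+TGF-β library than in any Th0 library, but that difference of 0.45 ± 0.32 was not called (log2, SE; limma, adjusted p = 0.356). Bcl11a, a zinc finger factor needed for early lymphoid development, had 18.6, 27.4 and 39.2 FPKM in Tnfr2-/- TNF+TGF-β, against 2.93, 2.54 and 2.62 FPKM in WT TNF+TGF-β, 5.72, 3.65 and 9.49 FPKM in WT IL-6+TGF-β and 10.7, 8.58 and 11.7 FPKM in Th0. It rose in Tnfr2-/- against WT by 2.93 ± 0.30 (log2, SE; limma, adjusted p = 2.48e-05).

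Pou2af1, the coactivator of the Oct factors in B cells, had 59.3, 48.1 and 62.7 FPKM in Tnfr2-/- TNF+TGF-β, against 18.3, 14.97 and 16.7 FPKM in WT TNF+TGF-β, 43.4, 59.6 and 79.9 FPKM in WT IL-6+TGF-β and 40.9, 45.3 and 48.1 FPKM in Th0. It fell in TNF+TGF-β compared with IL-6+TGF-β with no overlap, the difference being -1.77 ± 0.19 (log2, SE; limma, adjusted p = 6.33e-05), and its Tnfr2-/- libraries lay within the range of the IL-6+TGF-β and Th0 libraries. Pou2f2, the factor Oct-2, had 42.6, 34.1 and 48.4 FPKM in Tnfr2-/- TNF+TGF-β, against 31.9, 27.4 and 26.98 FPKM in WT TNF+TGF-β, 12.8, 20.8 and 26.8 FPKM in WT IL-6+TGF-β and 28.2, 33.3 and 35.9 FPKM in Th0. Its Tnfr2-/- libraries were above those of WT TNF+TGF-β, but the difference of 0.51 ± 0.23 missed the threshold (log2, SE; limma, adjusted p = 0.0939). Spib, an Ets family factor of B cells and plasmacytoid dendritic cells, had 55.6, 54.4 and 70.4 FPKM in Tnfr2-/- TNF+TGF-β, against 47.8, 55.8 and 37.9 FPKM in WT TNF+TGF-β, 17.5, 18.2 and 38.4 FPKM in WT IL-6+TGF-β and 34.8, 37.4 and 38.8 FPKM in Th0. Tnfr2-/- and WT TNF+TGF-β libraries of Spib overlapped, and the difference was 0.35 ± 0.25 (log2, SE; limma, adjusted p = 0.298).

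Among the 16 genes listed as most restricted to B cells, Spib had the highest difference of TNF+TGF-β from Th0, 0.33 ± 0.25 (log2, SE). This difference was not called (limma, adjusted p = 0.35). Spib is in that list although it is also a factor of plasmacytoid dendritic cells. Against IL-6+TGF-β it was higher in TNF+TGF-β by 0.98 ± 0.25 (limma, adjusted p = 0.0231), although replicate 3 of IL-6+TGF-β lay within the TNF+TGF-β range, and this call was lost without TNF+TGF-β replicate 1 or 2 or IL-6+TGF-β replicate 1 or 2. Irf8, a factor of B, myeloid and dendritic cells, had 257, 327 and 277 FPKM in Tnfr2-/- TNF+TGF-β, against 217, 167 and 238 FPKM in WT TNF+TGF-β, 187, 137 and 180.3 FPKM in WT IL-6+TGF-β and 314, 279 and 306 FPKM in Th0. Its mean in Tnfr2-/- cells was 1.38 times that in WT TNF+TGF-β cells, and both cytokine pairs in WT were below Th0.

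The receptors of the TNF receptor family and the RP105 complex were mixed. In Tnfr2-/- against WT cells 3 of the 5 genes were higher, namely Tnfrsf13b, Cd180 and Ly86. In TNF+TGF-β against Th0 2 were lower and 1 higher, in IL-6+TGF-β against Th0 3 were lower and 1 higher, and in TNF+TGF-β compared with IL-6+TGF-β 2 were lower and 1 higher.

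Tnfrsf13b, the receptor TACI for BAFF and APRIL, had 156, 212 and 228 FPKM in Tnfr2-/- TNF+TGF-β, against 77.8, 78.1 and 88.8 FPKM in WT TNF+TGF-β, 196, 173 and 189 FPKM in WT IL-6+TGF-β and 60.3, 45.3 and 65.1 FPKM in Th0. Th0 was the lowest group and IL-6+TGF-β overlapped with Tnfr2-/-. IL-6+TGF-β exceeded Th0 by 1.71 ± 0.16 (log2, SE; limma, adjusted p = 1.39e-05), and Tnfr2-/- exceeded WT TNF+TGF-β by 1.26 ± 0.16 (limma, adjusted p = 0.000133). Tnfrsf13c, the BAFF receptor, had 46.6, 37.4 and 46.1 FPKM in Tnfr2-/- TNF+TGF-β, against 20.6, 40.01 and 20.6 FPKM in WT TNF+TGF-β, 5.79, 12.8 and 15.7 FPKM in WT IL-6+TGF-β and 13.2, 50.8 and 24.4 FPKM in Th0. Its Th0 libraries spread from 13.2 to 50.8 FPKM, and none of the comparisons was called for it with all libraries. It was called in IL-6+TGF-β against Th0 without Th0 replicate 1 (limma, adjusted p = 0.0198) and in Tnfr2-/- against Th0 without Th0 replicate 2 (limma, adjusted p = 0.0313). The difference of Tnfr2-/- from WT was 0.73 ± 0.44 (log2, SE; limma, adjusted p = 0.219).

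Cd40, the receptor for T cell help, had 23.9, 48.8 and 42.2 FPKM in Tnfr2-/- TNF+TGF-β, against 22.3, 29.4 and 26.2 FPKM in WT TNF+TGF-β, 10.2, 14.4 and 11.7 FPKM in WT IL-6+TGF-β and 38.04, 42.9 and 35.9 FPKM in Th0. The IL-6+TGF-β libraries were below all others, with a difference of -1.62 ± 0.23 from Th0 (log2, SE; limma, adjusted p = 0.000278), and TNF+TGF-β was higher than IL-6+TGF-β by 1.05 ± 0.23 (limma, adjusted p = 0.00898). Tnfr2-/- library 1 of Cd40 lay within the range of the WT TNF+TGF-β libraries, and libraries 2 and 4 lay above it. Cd180, the Toll-like surface protein RP105, had 29.9, 41.4 and 41.2 FPKM in Tnfr2-/- TNF+TGF-β, against 2.70, 4.20 and 2.29 FPKM in WT TNF+TGF-β, 4.61, 4.28 and 6.13 FPKM in WT IL-6+TGF-β and 8.41, 9.52 and 8.03 FPKM in Th0. Ly86, its partner MD-1, had 107, 198 and 215 FPKM in Tnfr2-/- TNF+TGF-β, against 16.2, 20.5 and 14.6 FPKM in WT TNF+TGF-β, 47.8, 22.7 and 43.98 FPKM in WT IL-6+TGF-β and 97.3, 84.5 and 105 FPKM in Th0. This pair rose in Tnfr2-/- against WT by 3.26 ± 0.20 for Cd180 (log2, SE; limma, adjusted p = 1.17e-06) and 3.22 ± 0.30 for Ly86 (limma, adjusted p = 1.5e-05), and both fell in each cytokine pair against Th0.

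**Figure D3:**
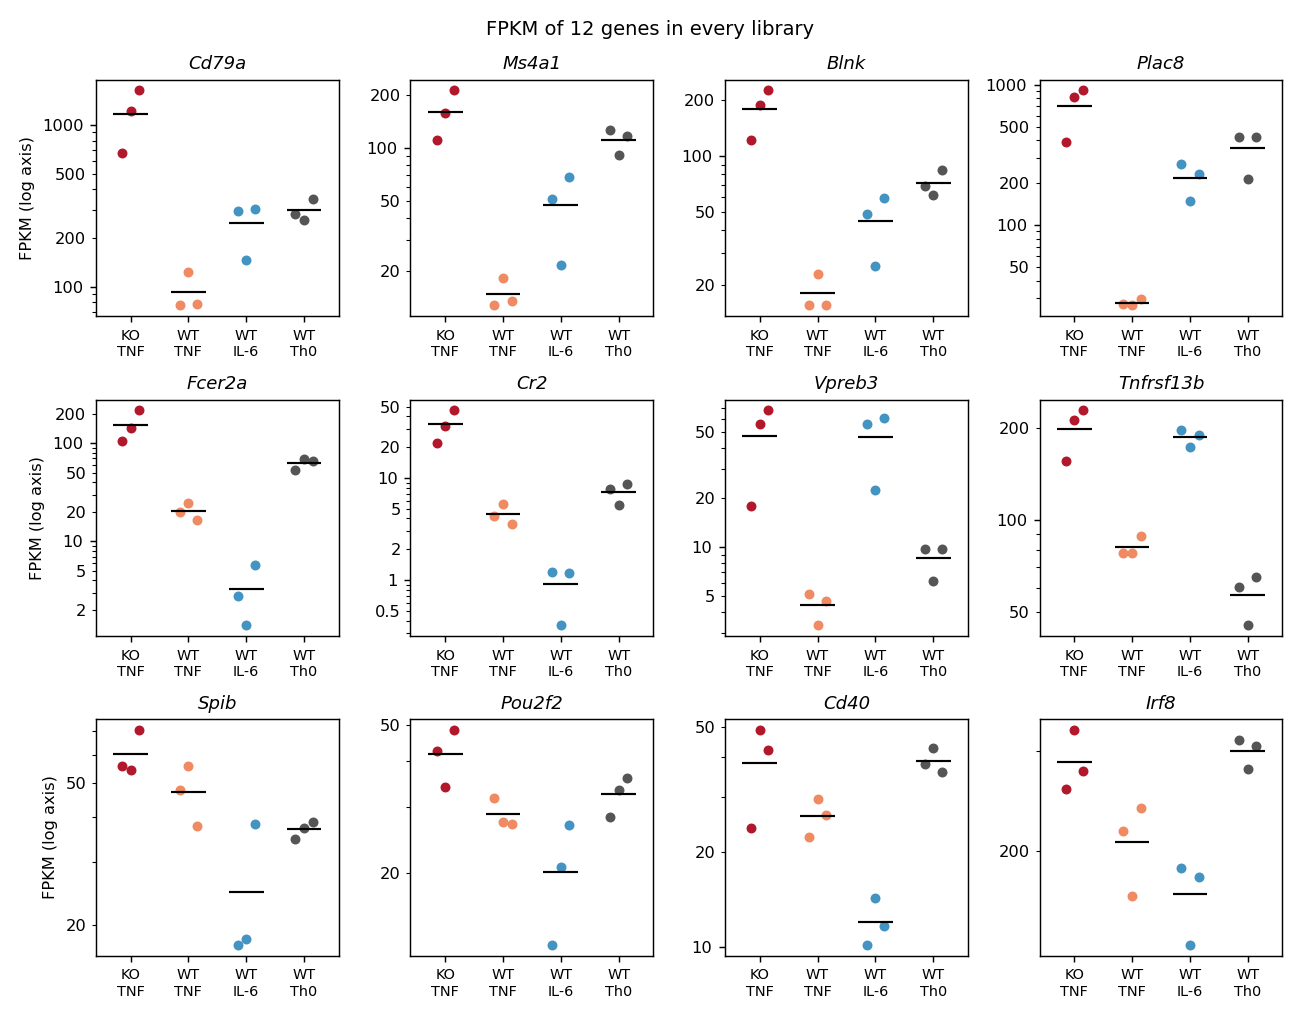
FPKM of 12 of the genes in each library (vertical log axis, its range set for each gene), with KO for Tnfr2-/- and the cytokine named under each group. Points are libraries and lines are group means (n = 3). Fcer2a and Cr2 are lowest with IL-6+TGF-β, Vpreb3 and Tnfrsf13b are raised there against Th0, and Spib, Pou2f2, Cd40 and Irf8 show the smallest gaps between Tnfr2-/- and WT TNF+TGF-β.

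The remaining 8 surface and intracellular genes were all higher in Tnfr2-/- than in WT cells, with a median difference of 2.64. In TNF+TGF-β against Th0 5 of 8 were lower, and in IL-6+TGF-β against Th0 3 were higher and 2 lower. TNF+TGF-β compared with IL-6+TGF-β gave 5 of 8 lower.

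Plac8, a small cysteine-rich protein of lymphoid and myeloid cells, had 389, 821 and 907 FPKM in Tnfr2-/- TNF+TGF-β, against 27.3, 26.7 and 29.6 FPKM in WT TNF+TGF-β, 272, 149 and 230.2 FPKM in WT IL-6+TGF-β and 420.1, 213 and 425 FPKM in Th0. The WT TNF+TGF-β libraries were far below all others and close to each other. Its rise in Tnfr2-/- against WT, 4.52 ± 0.34 (log2, SE; limma, adjusted p = 4.77e-06), and its fall in TNF+TGF-β against Th0, -3.55 ± 0.34 (limma, adjusted p = 1.25e-05), were each the largest of the 36 genes. Its mean was 25.3 times as high in Tnfr2-/- as in WT cells. Ms4a1, the surface protein CD20, had 112, 159 and 212 FPKM in Tnfr2-/- TNF+TGF-β, against 12.8, 18.3 and 13.5 FPKM in WT TNF+TGF-β, 51.7, 21.7 and 68.2 FPKM in WT IL-6+TGF-β and 126, 91.9 and 116 FPKM in Th0. It fell in both cytokine pairs against Th0, with differences of -2.83 ± 0.35 with TNF+TGF-β (log2, SE; limma, adjusted p = 9.97e-05) and -1.35 ± 0.35 with IL-6+TGF-β (limma, adjusted p = 0.0156).

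Vpreb3, a relative of the surrogate light chain that stays in the secretory pathway, had 17.7, 55.9 and 68.1 FPKM in Tnfr2-/- TNF+TGF-β, against 5.19, 3.34 and 4.70 FPKM in WT TNF+TGF-β, 56.3, 22.4 and 61.4 FPKM in WT IL-6+TGF-β and 9.77, 6.25 and 9.74 FPKM in Th0. Every IL-6+TGF-β library was above every Th0 library, with a difference of 2.21 ± 0.47 (log2, SE; limma, adjusted p = 0.00464), while TNF+TGF-β against Th0 was not called (limma, adjusted p = 0.202). Between the cytokine pairs the difference was -3.03 ± 0.47, TNF+TGF-β minus IL-6+TGF-β (limma, adjusted p = 0.000847). Cd24a, a small glycolipid-anchored protein also found on other leukocytes, had 48.8, 70.2 and 74.7 FPKM in Tnfr2-/- TNF+TGF-β, against 11.7, 12.1 and 9.99 FPKM in WT TNF+TGF-β, 57.8, 44.5 and 59.5 FPKM in WT IL-6+TGF-β and 23.8, 21.9 and 22.7 FPKM in Th0. It rose in IL-6+TGF-β against Th0 by 1.19 ± 0.17 (log2, SE; limma, adjusted p = 0.000287) and fell in TNF+TGF-β against Th0, with a difference of -0.96 ± 0.17 (limma, adjusted p = 0.00125). Cd38, a surface enzyme shared with activated T cells and myeloid cells, had 64.6, 92.2 and 147 FPKM in Tnfr2-/- TNF+TGF-β, against 21, 19.9 and 19.5 FPKM in WT TNF+TGF-β, 68.3, 41.2 and 74.2 FPKM in WT IL-6+TGF-β and 30.7, 20.2 and 32.5 FPKM in Th0. It rose with IL-6+TGF-β by 1.10 ± 0.29 (log2, SE; limma, adjusted p = 0.0172), and its TNF+TGF-β and Th0 libraries overlapped.

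Swap70, which acts on the actin skeleton of B cells, had 75.98, 87.3 and 117 FPKM in Tnfr2-/- TNF+TGF-β, against 23.8, 34.95 and 23.8 FPKM in WT TNF+TGF-β, 15.8, 14.7 and 21.6 FPKM in WT IL-6+TGF-β and 83.6, 67.9 and 87.1 FPKM in Th0. Both WT cytokine groups were below Th0, and Tnfr2-/- and Th0 libraries overlapped. Cd37, a tetraspanin of mature leukocytes, had 359, 495 and 602 FPKM in Tnfr2-/- TNF+TGF-β, against 163, 204 and 172 FPKM in WT TNF+TGF-β, 217, 169 and 230.4 FPKM in WT IL-6+TGF-β and 244, 232 and 274 FPKM in Th0. Among the 8 genes it had the smallest fold of means between Tnfr2-/- and WT, 2.70, and its fall in TNF+TGF-β against Th0 missed the threshold (limma, adjusted p = 0.0679). Ralgps2, an exchange factor for Ral GTPases, had 78.7, 139 and 144 FPKM in Tnfr2-/- TNF+TGF-β, against 14.7, 19.4 and 11.8 FPKM in WT TNF+TGF-β, 38.1, 13.9 and 31.5 FPKM in WT IL-6+TGF-β and 42.8, 32.5 and 39.9 FPKM in Th0. It was higher in Tnfr2-/- than in WT by 2.87 ± 0.34 (log2, SE; limma, adjusted p = 6.32e-05), and IL-6+TGF-β and Th0 libraries overlapped.

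Libraries of one group differed along the whole set. Among the Tnfr2-/- libraries, number 1 was the lowest for 32 of 36 genes and number 4 the highest for 30, and the sum over the 36 genes was 6163, 9739 and 11401 FPKM in libraries 1, 2 and 4. In IL-6+TGF-β, replicate 2 was lowest for 30 genes and replicate 3 highest for 27. In Th0, replicate 2 was lowest for 26 and replicate 3 highest for 25, and in WT TNF+TGF-β replicate 2 was highest for 26. The sums were 1334, 1564 and 1317 FPKM in WT TNF+TGF-β, 2572, 1594 and 2787 FPKM in WT IL-6+TGF-β and 3419, 2548 and 3682 FPKM in Th0.

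Dividing each gene by Cd79a in the same library showed which genes held a steady proportion and which did not, as a description without a test. Btk was at 4.10% to 6.06% of Cd79a in Tnfr2-/-, 5.37% to 6.76% in WT TNF+TGF-β, 4.16% to 5.45% in IL-6+TGF-β and 4.67% to 7.08% in Th0, so the ranges overlapped in all 4 groups. Blnk was at 13.8% to 18.3% in Tnfr2-/-, 18.8% to 20.4% in WT TNF+TGF-β, 16.6% to 19.6% in IL-6+TGF-β and 23.9% to 24.5% in Th0, where it was above the other groups. Fcer2a was at 11.8% to 15.7% of Cd79a in Tnfr2-/-, 19.8% to 25.8% in WT TNF+TGF-β, 0.939% to 1.91% in IL-6+TGF-β and 18.8% to 26.6% in Th0. Cr2 was also lowest in that group, at 0.245% to 0.406% in IL-6+TGF-β, against 2.11% to 2.76% in Th0. The opposite held for Vpreb3, at 15.3% to 20.3% in IL-6+TGF-β and 2.43% to 3.48% in Th0, and for Cd24a, at 19.7% to 30.3% in IL-6+TGF-β and 6.49% to 8.51% in Th0.

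Other genes stood high relative to Cd79a in WT TNF+TGF-β, where Cd79a itself was low. Among them were Irf8 at 135% to 305%, Cd37 at 165% to 220%, Cd72 at 132% to 153% and Tnfrsf13c at 26.3% to 32.4%. Each of these ranges lay above those of the other groups. Tnfrsf13b, at 63.3% to 114%, overlapped with its range in IL-6+TGF-β, 62.5% to 118%. Spib was at 4.30% to 8.34% of Cd79a in Tnfr2-/-, 45.2% to 62.5% in WT TNF+TGF-β and 11.1% to 14.5% in Th0. Pou2f2 was at 2.81% to 6.38% in Tnfr2-/-, 22.2% to 41.6% in WT TNF+TGF-β and 10.1% to 12.9% in Th0. Cd40 was at 2.58% to 4.02% in Tnfr2-/-, 23.9% to 33.6% in WT TNF+TGF-β and 10.2% to 16.6% in Th0. In IL-6+TGF-β Spib was at 5.98% to 12.7%, Pou2f2 at 4.37% to 14.2% and Cd40 at 3.48% to 9.81%. Plac8 went the other way, at 55.4% to 67.5% in Tnfr2-/-, 21.7% to 37.99% in WT TNF+TGF-β and 82.8% to 149.8% in Th0. Ly86 stood highest in Th0, at 13.2% to 16.3% in Tnfr2-/-, 16.6% to 21.1% in WT TNF+TGF-β, 14.6% to 16.3% in IL-6+TGF-β and 29.9% to 34.7% in Th0.

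**Figure D4:**
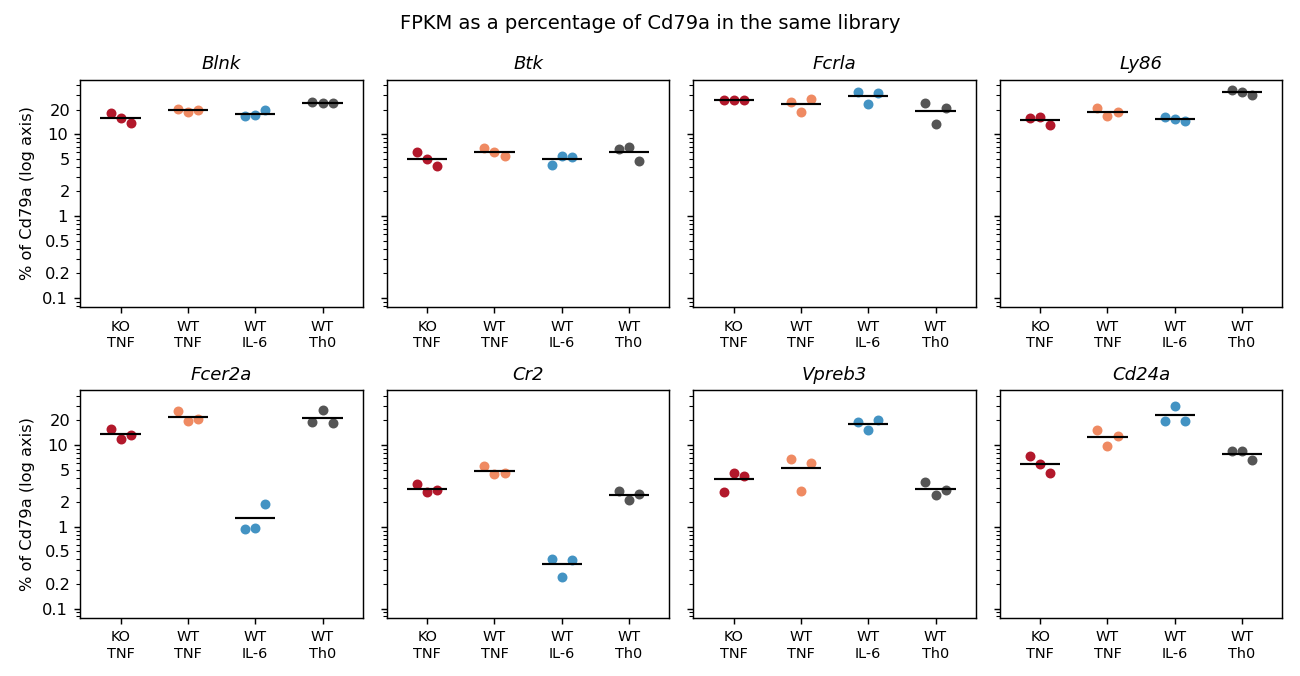
FPKM of 8 genes as a percentage of Cd79a in the same library (vertical log axis, shared by all panels), with KO for Tnfr2-/-. Points are libraries and lines are group means (n = 3). The upper 4 genes (Blnk, Btk, Fcrla and Ly86) lie between 4.10% and 34.7% in all libraries, while Fcer2a and Cr2 are lowest and Vpreb3 and Cd24a highest with IL-6+TGF-β.

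Tnfr2-/- cells with TNF+TGF-β were also set against WT Th0 cells, a comparison added after the data were seen, in which genotype and cytokines differ together and cannot be told apart. Of the 36 genes 29 were higher and 0 lower (limma, adjusted p under 0.05; at an unadjusted p under 0.05 also 29 higher and 0 lower), while 29.0% of all tested genes were higher and 19.1% lower. Libraries did not overlap for 28 genes, all higher, against 33.9% of all tested genes higher and 22.7% lower. The median difference was 1.38 over the 36 genes and 0.13 over all tested genes. The largest differences were those of Fcmr, 2.44 ± 0.37 (log2, SE; limma, adjusted p = 0.000249), and Fcrla, 2.36 ± 0.42 (limma, adjusted p = 0.000767). Cd79a averaged 1174 ± 486 FPKM in Tnfr2-/- and 296 ± 48.1 FPKM in Th0 (SD, n = 3 each), a difference of 1.90 ± 0.34 (limma, adjusted p = 0.000849). Not called were Ms4a1, Pou2af1, Pou2f2, Tnfrsf13c, Cd40, Irf8 and Swap70. The calls of Pax5, Cd22, Spib, Ly86, Plac8 and Bank1 were lost in at least 1 fit that left out 1 library (limma, adjusted p between 0.0519 and 0.157). Bank1 was lost without Tnfr2-/- library 4 alone, and Plac8 without Th0 replicate 2 or Tnfr2-/- library 2 or 4.

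Genes outside the set that belong to B cells were read from lists that were also chosen with earlier results of these data known. Of 24 other genes of the BCR pathway, 17 were higher and 1 lower in Tnfr2-/- than in WT cells. In TNF+TGF-β versus Th0 the list had 3 genes higher and 8 lower, in IL-6+TGF-β versus Th0 3 and 6, and between TNF+TGF-β and IL-6+TGF-β 4 and 5. Ighm, the IgM heavy chain, had 1814, 2269 and 2651 FPKM in Tnfr2-/- TNF+TGF-β, against 362, 467 and 354 FPKM in WT TNF+TGF-β, 1059.9, 814 and 1303 FPKM in WT IL-6+TGF-β and 904, 951 and 1039 FPKM in Th0. Both groups of TNF+TGF-β libraries stood apart from each other without overlap in this gene, as they did for Igkc, the kappa light chain, with 2501, 4005 and 5193 FPKM in Tnfr2-/-, 359.7, 423 and 343 FPKM in WT TNF+TGF-β, 906, 461 and 1148 FPKM in IL-6+TGF-β and 2247, 2519 and 2934 FPKM in Th0. The lambda chain gene Iglc2 had the largest rise of the list in Tnfr2-/- against WT, 3.53 (log2; limma, adjusted p = 1.08e-05), and Vav3, an exchange factor of antigen receptor signalling, the largest fall, -2.83 in IL-6+TGF-β against Th0 (limma, adjusted p = 7.82e-06). The 1 gene lower in Tnfr2-/- than in WT was Cd81, a tetraspanin that T cells also carry, at -0.85 (limma, adjusted p = 0.0095).

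Of 21 further B cell genes, which include the immunoglobulin genes again, 18 were higher in Tnfr2-/- than in WT cells (all but Fcrl1, Ccr6 and Cd1d1). In TNF+TGF-β versus Th0 2 were higher and 10 lower, in IL-6+TGF-β versus Th0 2 and 8, and between TNF+TGF-β and IL-6+TGF-β 4 and 6. H2-Ob, the beta chain of the class II modulator DO, had 219, 337 and 414 FPKM in Tnfr2-/- TNF+TGF-β, against 24.2, 33.1 and 23.6 FPKM in WT TNF+TGF-β, 56.3, 30.3 and 74.6 FPKM in WT IL-6+TGF-β and 60.1, 32.6 and 64.4 FPKM in Th0. Napsa, an aspartic protease, fell in TNF+TGF-β against Th0, with a difference of -2.69 (log2; limma, adjusted p = 0.000106). Ccr6, a chemokine receptor shared by B cells and T helper cells, rose in TNF+TGF-β against Th0 by 3.32 (limma, adjusted p = 1.51e-07). All 8 MHC class II genes were higher in Tnfr2-/- than in WT cells, with a median difference of 3.42 on the log2(FPKM + 1) scale, and 6 of 8 were lower in TNF+TGF-β than in Th0, 3 of 8 lower in IL-6+TGF-β than in Th0 and 1 of 8 lower in TNF+TGF-β than in IL-6+TGF-β. Among them H2-Eb1 had the largest difference of Tnfr2-/- from WT, 3.54 on that scale, but not the highest FPKM. It had 1575, 2907 and 2887 FPKM in Tnfr2-/- TNF+TGF-β, against 179, 275 and 169 FPKM in WT TNF+TGF-β, 489, 232 and 490.0 FPKM in WT IL-6+TGF-β and 937, 545 and 1058 FPKM in Th0. H2-Ab1 differed by 3.50 and H2-Aa by 3.49 between Tnfr2-/- and WT (log2; limma, adjusted p = 1.6e-05 and 1.9e-05).

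Markers of other cells moved in the same comparisons. Beside the counts below, 19.9% of all tested genes were higher and 17.5% lower in Tnfr2-/- than in WT. Of the 16 genes listed as most restricted to B cells 14 were higher in Tnfr2-/- than in WT (all but Spib and Tnfrsf13c). So were 18 of the 20 members also known from T, myeloid or dendritic cells. The summed FPKM of the 16 was 2439 to 5283 in Tnfr2-/-, 386 to 506 in WT TNF+TGF-β, 584 to 1262 in IL-6+TGF-β and 1017 to 1497 in Th0. Of 16 T cell markers 6 were lower in Tnfr2-/- than in WT (among them Cd4, Cd8a and Cd8b1) and 1 was higher (Cd28). Their summed FPKM was 4457 to 6533 in Tnfr2-/-, 6284 to 6568 in WT TNF+TGF-β, 5577 to 6783 in IL-6+TGF-β and 7266 to 7321 in Th0. Cd3e was not called (-0.79, log2; limma, adjusted p = 0.0906), while Cd8a, a CD8 chain, fell by 3.10 (limma, adjusted p = 5.5e-05) and Cd4 by 2.07 (limma, adjusted p = 0.0117).

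Of 12 myeloid markers 10 were tested and 6 were higher in Tnfr2-/- than in WT, and their sum was 316 to 1603 FPKM in Tnfr2-/-, 106 to 182 FPKM in WT TNF+TGF-β, 35.8 to 128 FPKM in IL-6+TGF-β and 123 to 192 FPKM in Th0. Lyz2, a macrophage and neutrophil lysozyme, was at 1310.0, 928 and 178 FPKM in Tnfr2-/- libraries 1, 2 and 4, so it was highest in the library where the B cell genes were lowest. S100a8 and S100a9, calcium-binding proteins of neutrophils, differed by 4.30 and 3.98 (log2, limma, adjusted p = 0.00993 and 0.0159). Csf1r, the CSF-1 receptor, had 12.7, 5.94 and 3.58 FPKM in Tnfr2-/- libraries 1, 2 and 4, above its highest WT value of 3.09 FPKM. Cd14, a monocyte coreceptor, had 11.75, 6.45 and 1.08 FPKM there, against at most 3.76 FPKM in WT, so library 4 lay within the WT range. Of 9 dendritic cell markers 3 were tested, and Zbtb46 and Itgax were lower in Tnfr2-/- than in WT. Of 5 natural killer markers 3 were tested, and Klrk1 and Nkg7 were lower. Ncr1 and Klrb1c were not tested and were at most 0.63 and 0.58 FPKM in all libraries. Whether natural killer cells were present was not tested. Of 5 erythroid markers 4 were tested and 3 globin genes were higher (Hba-a2, Hbb-bs and Hbb-bt). For Hba-a2 and Hbb-bs the groups overlapped, since Tnfr2-/- library 2, at 1.35 and 2.30 FPKM, lay within the WT TNF+TGF-β range. Fcgr1 and Csf3r among the myeloid markers, and Clec9a and Siglech among the dendritic ones, stayed under 1 FPKM in every library. The part of these cells in the B cell gene differences was not tested.

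**Figure D5:**
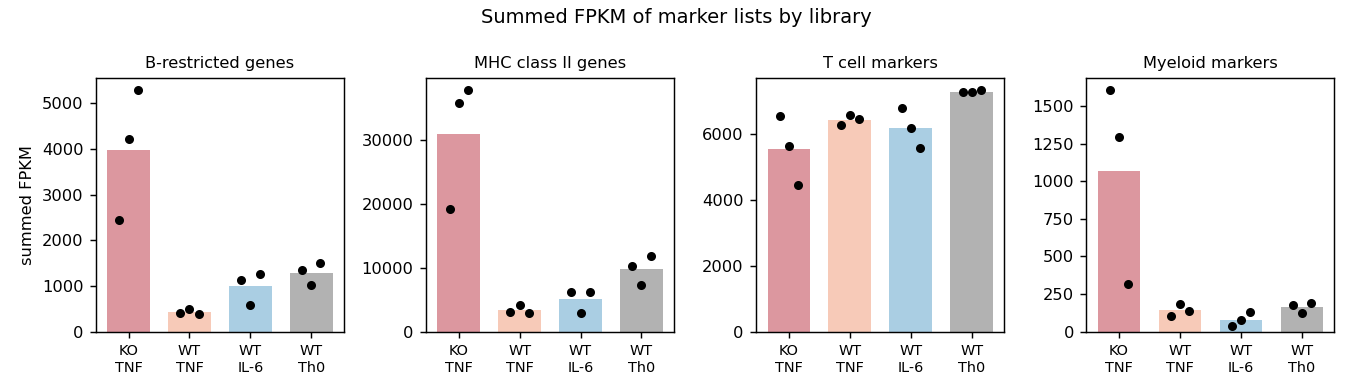
Summed FPKM (vertical axis, from 0) of the 16 genes listed as B-restricted, 8 MHC class II genes, 16 T cell markers and 12 myeloid markers, with KO for Tnfr2-/-. Points are libraries and bars are group means (n = 3). B-restricted sums reach 2439 to 5283 in Tnfr2-/-, against 386 to 506 in WT TNF+TGF-β, while among the 3 Tnfr2-/- libraries the myeloid sum is lowest where the B-restricted sum is highest, and still above all WT libraries.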

How the data were processed

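Gene-level FPKM values of 12 libraries were used as deposited, in 1 table of 47643 genes. The quantity is not named in the file header and was read as FPKM from the values. The submitters' processing notes name Trimmomatic with no version, STAR 2.5.4, RSEM 1.3.1 and mm10. Per the labels' protocols, libraries were made with SMARTer v4 cDNA and Nextera XT, which keep no strand, and each condition was done in triplicate. The Tnfr2-/- titles carry the numbers 1, 2 and 3, while the columns carry 1, 2 and 4, so the last is called library 4.

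Deposited values were put on a log2 scale as log2(FPKM + 1), which understates folds of low genes, and tested with limma 3.58.1 in R 4.3.3. A gene was kept if 3 or more libraries reached 1 FPKM, and the 13082 kept were fitted, with 1 mean per group over all 12 libraries and a variance prior following the mean. Calls are at a Benjamini-Hochberg adjusted p under 0.05 over all tested genes within each comparison. Of 5 comparisons, Tnfr2-/- against Th0 was added after the data were seen. The model was tested on simulated data. Fold values are ratios of mean FPKM.

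The genes and marker lists were chosen with earlier results of these data known. Every member is named; of other lists, the rule names the 3 called genes with the largest difference in each direction and a few defining markers (Ighm, Ighd, Igkc, Cd3e, Cd4, Cd8a, Cd14, Csf1r and Itgax among them), except genes not reported here. Other genes outside the set, such as Cd81 and Cd28, were named after their values were seen. Exon overlaps were read from GENCODE M21 on the same build, and promoter windows from RefSeq. Depth was estimated from 8697 genes, of which 77.8% to 88.6% gave whole fragments within 0.2. Alternatives were rescaling to TPM, median-ratio scaling, pseudocounts of 0.1 and 0.01, no filter, a mean of at least 5 FPKM, 2 groups only, a constant prior, a replicate block and leaving out each library. Figures were drawn with Python 3.11.15 and matplotlib 3.10.9.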

Additional observations from a re-analysis of the deposited data

How the results depend on the processing

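Leaving out each library in turn gave 0 to 1 genes higher and 19 to 25 lower in TNF+TGF-β against Th0, 3 to 5 higher and 7 to 16 lower in IL-6+TGF-β against Th0, and 3 to 6 higher and 10 to 21 lower between TNF+TGF-β and IL-6+TGF-β. It gave 31 to 33 higher in Tnfr2-/- against WT and 23 to 27 higher in Tnfr2-/- against Th0, with 0 lower in both. The 1 gene higher in TNF+TGF-β against Th0, Tnfrsf13b, was not called under median-ratio scaling or with no filter, which gave 0, and the cause was not tested. Of the called genes, 31 of 32 kept their call and direction under every alternative that tested them in Tnfr2-/- against WT (all but Irf8), 22 of 29 in Tnfr2-/- against Th0, 19 of 27 in TNF+TGF-β against Th0, 10 of 16 in IL-6+TGF-β against Th0 and 13 of 21 between TNF+TGF-β and IL-6+TGF-β. With a mean of at least 5 FPKM, 35 of the 36 genes were tested and Pax5 was not. With no filter, 31 were higher in Tnfr2-/- against WT and 24 in Tnfr2-/- against Th0. That setting gave 22 lower in TNF+TGF-β against Th0, and 4 higher and 8 lower in IL-6+TGF-β against Th0. Between TNF+TGF-β and IL-6+TGF-β it gave 3 higher and 12 lower. Rescaling to TPM also gave 8 lower in IL-6+TGF-β against Th0, and median-ratio scaling gave 24 higher in Tnfr2-/- against Th0. With the replicate block, 31 genes were higher in Tnfr2-/- against WT, 23 in Tnfr2-/- against Th0, 1 higher and 27 lower in TNF+TGF-β against Th0, 4 higher and 11 lower in IL-6+TGF-β against Th0, and 4 higher and 16 lower between TNF+TGF-β and IL-6+TGF-β. The labels do not say that the numbers pair the samples, and library 4 has no partner, so the main fit did not pair them. Correlations of same-numbered deviations ran from -0.183 (number 1, Tnfr2-/- against Th0) to 0.344 (number 2, IL-6+TGF-β against Th0). In each WT group S100a8 was highest in replicate 3, at 17.7 FPKM in Th0, 51.7 in IL-6+TGF-β and 24.3 in TNF+TGF-β. It was at most 7.13 FPKM in the other WT libraries. Whether same-numbered WT libraries share a source was not tested. Only differences that were not called changed sign, and for these too the cause was not tested. For TNF+TGF-β versus Th0, rescaling to TPM gave 0.020 for Cd72 and 0.0026 for Pou2f2, and median-ratio scaling gave -0.052 for Tnfrsf13c, which ran over -0.44 to 0.49 as single libraries were left out (-0.022 without Th0 replicate 3, -0.30 without TNF+TGF-β replicate 2). For IL-6+TGF-β versus Th0, rescaling to TPM gave 0.10 for Bank1, and leaving out single libraries gave -0.26 to 0.29 for Bank1 (0.056 without Th0 replicate 3), -0.28 to 0.27 for Syk (-0.026 without Th0 replicate 2), -0.027 to 0.80 for Fcrla and -0.50 to 0.019 for Cd79a. Leaving out a library gave -0.39 to 0.17 for Blk between TNF+TGF-β and IL-6+TGF-β. For Tnfr2-/- versus Th0, Irf8 was at 0.014 with the replicate block and ran over -0.16 to 0.0074, and Cd40 over -0.28 to 0.22. Rescaling to TPM moved the median of all genes by 0.154 in TNF+TGF-β against Th0 and by -0.111 in Tnfr2-/- against WT (log2). Depth limits Pax5 and Cr2 most, whose lowest group means were under 1 FPKM.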

Other observations

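Markers of B cell stages were uneven across the groups. Beside the counts below, 19.9% of all tested genes were higher and 17.5% lower in Tnfr2-/- than in WT under TNF+TGF-β. Of 16 genes marking naive, germinal centre or plasma cells 13 were tested, and 8 were higher and 1 lower in Tnfr2-/- than in WT cells under TNF+TGF-β. The 8 include Fcer2a, itself one of the 36 genes, and Prdm1, the plasma cell factor, which reached 1 FPKM in Tnfr2-/- libraries alone and so passed the filter only through the group where it was high. Mzb1, a chaperone of immunoglobulin assembly, had 114, 219 and 331 FPKM in Tnfr2-/- TNF+TGF-β, against 9.48, 9.64 and 11.3 FPKM in WT TNF+TGF-β, 59.8, 20.5 and 52.2 FPKM in WT IL-6+TGF-β and 94.9, 61.9 and 80.6 FPKM in Th0. It was the largest difference of this list, at 4.19 ± 0.40 for Tnfr2-/- minus WT (log2, SE; limma, adjusted p = 1.83e-05), and it fell in TNF+TGF-β against Th0, with a difference of -2.83 ± 0.40 (limma, adjusted p = 0.000268). Ighd, the IgD heavy chain of naive B cells, had 392, 491 and 607 FPKM in Tnfr2-/- TNF+TGF-β, against 60.3, 79.4 and 58.3 FPKM in WT TNF+TGF-β, 170.3, 131 and 281 FPKM in WT IL-6+TGF-β and 136, 132 and 193 FPKM in Th0. The difference of IL-6+TGF-β from Th0 was 0.28 ± 0.27 and was not called (log2, SE; limma, adjusted p = 0.498), in the libraries where Fcer2a, another gene of mature naive B cells, was lowest. Fas, a death receptor of germinal centre B cells and activated T cells, was lower in Tnfr2-/- than in WT, with 21.3, 18.1 and 18.2 FPKM in Tnfr2-/- TNF+TGF-β, against 98.4, 88.9 and 80.9 FPKM in WT TNF+TGF-β, 36.9, 30.3 and 28.2 FPKM in WT IL-6+TGF-β and 29.8, 31.4 and 23.7 FPKM in Th0. The difference was -2.16 ± 0.15 (log2, SE; limma, adjusted p = 2.25e-06). Prdm1 stayed under 1.5 FPKM in every library, and Tnfrsf17, the plasma cell receptor BCMA, was at 0 throughout. Other genes of the list were not near 0. Sdc1 had 18.26, 19.65 and 29 FPKM in Tnfr2-/- TNF+TGF-β, against 6.60, 5.37 and 5.11 FPKM in WT TNF+TGF-β. Jchain had 10.65, 8.93 and 8.81 FPKM against 0.52, 0.84 and 0.59 FPKM. For Xbp1 and Irf4 the libraries of these groups overlapped.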
